A study of Mus musculus with 6 samples.

Results

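The 9 genes described here encode the proteins that make, store, take up and break down catecholamines. They are Th, Gch1, Ddc, Dbh and Pnmt for synthesis, Slc18a1, Slc18a2 and Slc6a2 for transport, and Maoa for breakdown. They were taken from the deposited table of array values as the rows whose only platform gene symbol was the gene's own, and each gene had 1 such row. They make up 9 of the 19938 distinct symbols, which stand on 21789 of the table's 35556 rows.

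Total RNA came from N2A (neuro 2A) cells, a mouse neuroblastoma line, on Affymetrix Mouse Gene 1.0 ST arrays, whose probes are spread over the exons of a transcript. In the Pou3f3 knockdown group the cells were transiently transfected with a construct that makes a short hairpin RNA against Pou3f3, a POU domain transcription factor of neural cells. In the control group they received a non-targeting vector. Both groups got 1.5 µg of construct and were harvested 2.5 days later, and each had 3 arrays, numbered 1 to 3 and described as biological replicates. All were cultures of 1 cell line, and the p-values therefore reflect only how such cultures vary. The share of cells that took up a construct, and which of the study's Pou3f3 hairpins was used for the arrays, are not given in the sources used here. Fewer cells that express a gene and less RNA per cell cannot be told apart in these values.

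Catecholamines are made from the amino acid tyrosine. Tyrosine hydroxylase turns it into DOPA, aromatic amino acid decarboxylase turns DOPA into dopamine, and dopamine beta-hydroxylase turns dopamine into noradrenaline, which is the transmitter of most sympathetic neurons and which chromaffin cells convert further into adrenaline. Vesicular transporters load the amines into storage vesicles, a transporter in the outer membrane takes released noradrenaline back up, and monoamine oxidase degrades what is left in the cytosol. Neuroblastoma arises from the sympathoadrenal lineage, in which these genes mark the cell's transmitter type.

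Values are log2 array values, and every difference is knockdown minus control, so that a negative value means lower signal with knockdown. A row was called, and is said to have risen or fallen, where limma's test across all 21789 rows gave an adjusted p (Benjamini-Hochberg) under 0.1 and the fold was at least 1.3, which is 0.38 on the log2 scale. Under this rule 0.684% of all rows were called lower and 1.99% were called in either direction. Probes differ in brightness, so differences between groups are compared across genes and levels are not.

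The targeted gene itself showed a small difference that did not pass the test. Pou3f3 had log2 values of 8.20, 8.09 and 8.35 in the knockdown arrays, against 8.37, 8.30 and 8.47 in the control arrays. The groups overlapped, the difference was -0.16 ± 0.08 (SE), and limma's adjusted p was 0.303. It was below 0 in each pair of same-numbered arrays, between -0.21 and -0.12, and it was -0.10 without knockdown array 2 and -0.23 without knockdown array 3. Its 3 relatives did not pass either, at -0.06 for Pou3f1, -0.24 for Pou3f2 and -0.24 for Pou3f4. With same-numbered arrays treated as a block, limma's adjusted p was 0.0880 for Pou3f3, 0.479 for Pou3f1, 0.0264 for Pou3f2 and 0.0440 for Pou3f4. The folds of 1.12 (Pou3f3), 1.18 (Pou3f2) and 1.18 (Pou3f4) were below the cut-off, so these genes were not called in that fit either. Group names here are therefore those of the labels, and under the call rule the array values do not by themselves show a reduced Pou3f3 transcript. Row means of these 4 POU genes, from 7.27 to 8.80, lay within the range of the other-cell markers given below. Whether the 4 genes were detected above background was not tested.

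Of the synthesis, transport and breakdown genes, Dbh alone was called. It fell 2.24-fold with knockdown, while the other 8 genes did not pass the test. The count of 1 of 9 genes called lower stands beside 0.684% of all rows, and 0 of 9 were called higher. At an unadjusted p under 0.05 there were 3 genes, Th, Dbh and Slc18a2, all lower, where 19.9% of all rows had such a p in either direction. Differences were below 0 for 6 genes and above 0 for 3, with a median of -0.16, against a median of -0.03 over all 21789 rows. Knockdown and control values did not overlap for 4 of the 9 genes, 3 lower and 1 higher, where 26.0% of all rows did not overlap in either direction and 15.1% did so with lower knockdown values.

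**Figure D1:**
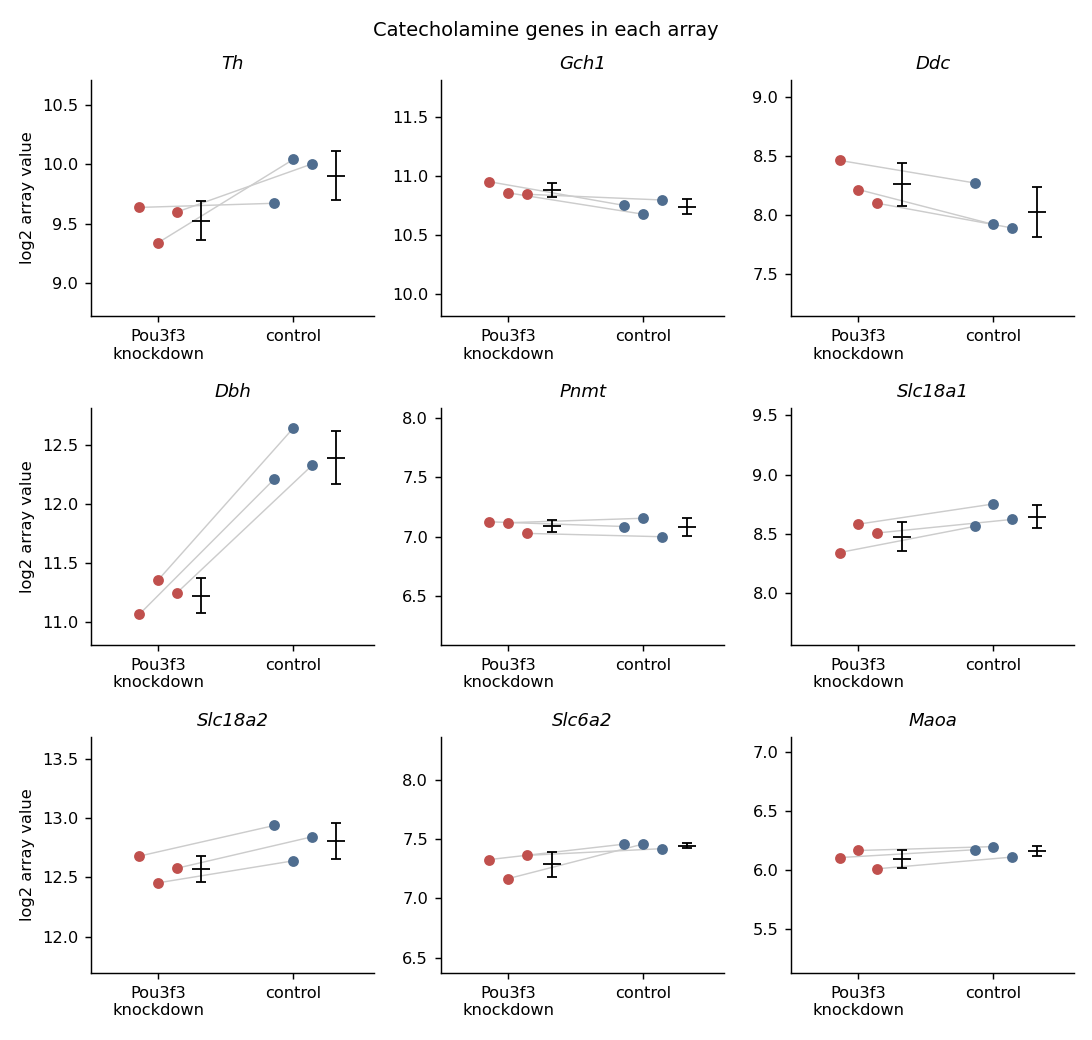
Log2 array value (vertical axis, the same span in every panel) of each of the 9 genes in the 3 Pou3f3 knockdown arrays (red) and the 3 control arrays (blue), with grey lines joining same-numbered arrays and black marks for the group mean ± SD. Dbh is the gene whose knockdown arrays, at 11.07 to 11.36, lie farthest from its control arrays, at 12.21 to 12.64.

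Th encodes tyrosine hydroxylase, the rate-limiting enzyme of the pathway. Its log2 values were 9.64, 9.34 and 9.60 in the knockdown arrays, against 9.67, 10.04 and 10.00 in the control arrays. All 3 knockdown values lay below all 3 control values, although knockdown array 1 and control array 1 were nearly equal. Means were 9.52 ± 0.16 with knockdown and 9.91 ± 0.20 in control cells (SD, n = 3 each), a difference of -0.38 ± 0.12 (SE) with a 95% confidence interval from -0.64 to -0.12. Limma's adjusted p was 0.133, so Th was not called, and a two-sided exact permutation test over the arrays gave p = 0.1, the smallest that 3 arrays against 3 allow. The size of the Th difference depended on the pair of same-numbered arrays, at -0.03, -0.70 and -0.41. When same-numbered arrays were treated as a block, the adjusted p was 0.0420 and Th was called lower, one of 2 of the 9 genes called so in that fit, where 0.757% of all rows were called lower. Without control array 1 it was also called, at -0.50 with an adjusted p of 0.0407.

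Gch1 encodes GTP cyclohydrolase 1, which starts the synthesis of tetrahydrobiopterin, the cofactor that tyrosine hydroxylase needs. Log2 values were 10.95, 10.86 and 10.84 with knockdown, against 10.75, 10.68 and 10.80 in controls. These groups did not overlap, and Gch1 was the only one of the 9 genes with all knockdown values above all control values. The difference of 0.14 ± 0.07 (SE; 95% confidence interval -0.01 to 0.29) did not pass the test, with an adjusted p of 0.271 by limma.

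Ddc encodes aromatic amino acid decarboxylase, which also makes serotonin. The 3 knockdown arrays had log2 values of 8.46, 8.21 and 8.10, against 8.27, 7.92 and 7.89 in the 3 control arrays. The groups overlapped because array 1 was the highest of its group on both sides. The difference was 0.23 ± 0.12 (SE; 95% confidence interval -0.04 to 0.51) and limma's adjusted p was 0.317. Within same-numbered pairs it was of like size, from 0.19 to 0.29, and with the replicate block the adjusted p was 0.0330, but the fold of 1.17 was below the cut-off and Ddc was not called in either fit. The difference was 0.13 without knockdown array 1 and 0.35 without control array 1.

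Dbh encodes dopamine beta-hydroxylase, the copper enzyme that makes noradrenaline from dopamine inside storage vesicles and so separates noradrenergic from dopaminergic cells. In the knockdown arrays it had log2 values of 11.07, 11.36 and 11.25, against 12.21, 12.64 and 12.32 in the control arrays. Every knockdown value lay below every control value, with a wide gap between the groups. Means were 11.22 ± 0.15 with knockdown and 12.39 ± 0.22 in control cells (SD, n = 3 each). The difference was -1.17 ± 0.12 (SE), with a 95% confidence interval from -1.43 to -0.90 and an adjusted p of 0.00471 by limma, so that Dbh signal fell by 55.4% (interval from -62.9% to -46.5%). Same-numbered pairs gave -1.14, -1.28 and -1.08, and the exact permutation p was 0.1, the smallest possible. Dbh kept its call in all 18 alternative analyses, with differences between -1.26 and -1.04.

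The start of the Dbh gene is shown because Dbh was the gene that fell and because the study designed primers there for chromatin immunoprecipitation of the POU3F3 protein. The window, RefSeq's annotated start in the build GRCm38.p6 with 250 bases before it and 50 after it, lies at chr2:27165257-27165556 on the plus strand. Capitals mark the 72-base segment that the primers enclose, chr2:27165463-27165534, from base -44 to base 28 relative to the start.
Dbh promoter: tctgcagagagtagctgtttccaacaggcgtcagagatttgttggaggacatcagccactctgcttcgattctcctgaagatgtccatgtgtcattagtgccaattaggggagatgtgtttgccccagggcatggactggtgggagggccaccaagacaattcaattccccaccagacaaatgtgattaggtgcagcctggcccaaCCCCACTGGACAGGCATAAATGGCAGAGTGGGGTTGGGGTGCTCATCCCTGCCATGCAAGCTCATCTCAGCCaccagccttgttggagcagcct
DbhChIPF1: ccccactggacaggcata
DbhChIPR1: ggctgagatgagcttgcat
The primers are given 5′ to 3′, and DbhChIPR1 reads the minus strand. Both strands of the window were searched for the octamer ATGCAAAT, the classical site of POU factors, and for ATTA, a core that many homeodomains bind. The octamer was not in the Dbh window. ATTA occurred 3 times, from bases -157, -147 and -65, and 0 times inside the capitals.

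The windows of Th and Slc18a2 are shown for comparison because both hold the 8 letters TGACGTCA of the cyclic AMP response element, in capitals. The Th window lies at chr7:142899946-142900245 on the minus strand, and that of Slc18a2 at chr19:59260628-59260927 on the plus strand.
Th promoter: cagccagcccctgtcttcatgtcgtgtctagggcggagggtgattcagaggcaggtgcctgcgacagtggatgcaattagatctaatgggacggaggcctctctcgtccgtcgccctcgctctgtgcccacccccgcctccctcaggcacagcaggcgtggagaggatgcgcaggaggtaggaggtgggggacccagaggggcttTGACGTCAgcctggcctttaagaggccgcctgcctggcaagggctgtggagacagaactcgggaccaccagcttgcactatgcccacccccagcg
Slc18a2 promoter: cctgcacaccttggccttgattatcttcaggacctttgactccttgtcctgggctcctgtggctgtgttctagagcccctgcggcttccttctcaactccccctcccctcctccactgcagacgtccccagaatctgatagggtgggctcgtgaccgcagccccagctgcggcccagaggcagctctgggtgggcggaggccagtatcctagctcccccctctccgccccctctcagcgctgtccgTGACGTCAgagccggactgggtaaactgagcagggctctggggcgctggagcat
The element spans bases -45 to -38 of Th and bases -4 to 4 of Slc18a2, and it is its own reverse complement. RefSeq windows were found for 6 of the 9 genes, Th, Gch1, Ddc, Dbh, Slc18a2 and Maoa, with a second window for Ddc. The element occurred in 2 of these 7 windows, where 1.79% of 32851 mouse windows of the same length hold it. The octamer occurred in 0 of the 7, where 1.74% of all windows hold it. ATTA occurred in 5 of the 7, in 4 of the 6 genes, where 58% of all windows hold it, and no ATTA overlapped an element. A match describes letters only, and its absence says nothing of what binds there or elsewhere.

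**Figure D2:**
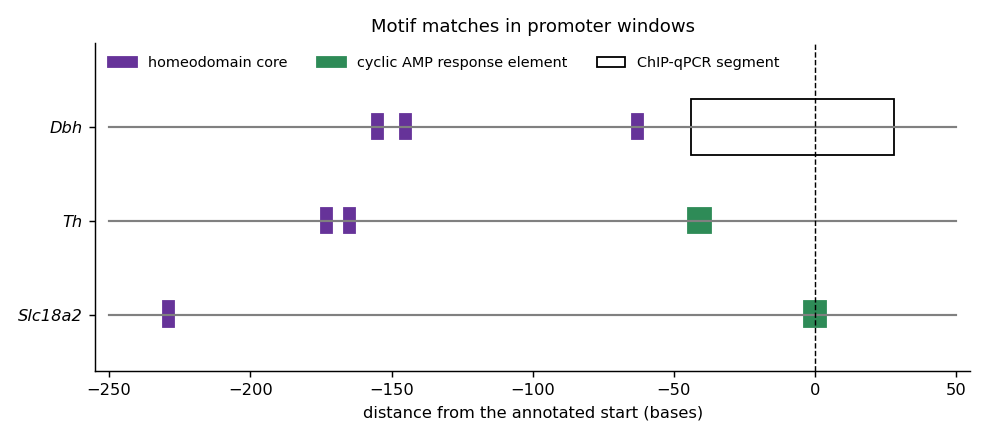
Positions of the ATTA homeodomain core (purple) and the cyclic AMP response element (green) on a scale of bases from the annotated start (dashed line) in the 300-base windows of Dbh, Th and Slc18a2; the open box is the segment between the study's chromatin immunoprecipitation primers. Dbh has 3 purple matches and none in the box, Th has 2 and Slc18a2 has 1, and the green element is in Th and Slc18a2.

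Pnmt encodes phenylethanolamine N-methyltransferase, which makes adrenaline and marks adrenergic chromaffin cells. It had log2 values of 7.12, 7.12 and 7.03 with knockdown, against 7.09, 7.16 and 7.00 in controls, and the groups overlapped. The difference was 0.01 ± 0.07 (SE), and its 95% confidence interval ran from -0.15 to 0.17, which leaves a change of up to about 12.2% in signal within the interval. The direction of so small a difference turned when single arrays were left out.

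**Figure D3:**
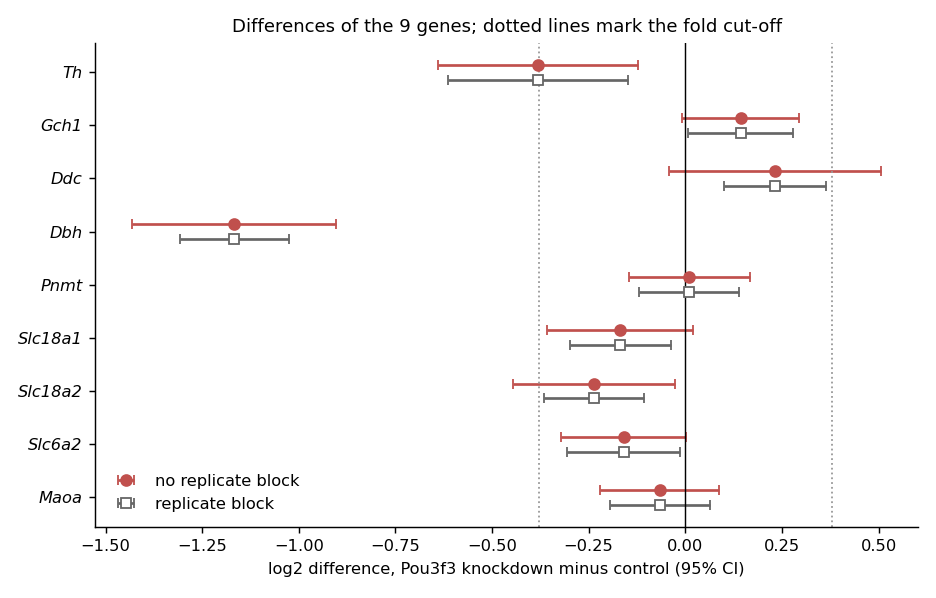
Log2 difference, Pou3f3 knockdown minus control, with its 95% confidence interval for each of the 9 genes, without (red circles) and with (open squares) same-numbered arrays treated as a block; dotted lines mark the fold cut-off of 1.3. Dbh, at -1.17, is the gene whose whole interval lies beyond the cut-off, and Th, at -0.38, lies on it.

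Among the transporters no gene was called. Slc18a1 and Slc18a2 encode the vesicular monoamine transporters VMAT1, typical of chromaffin cells, and VMAT2, typical of neurons. Slc18a1 had log2 values of 8.34, 8.58 and 8.51 with knockdown, against 8.56, 8.75 and 8.62 in controls, a difference of -0.17 ± 0.08 (SE; limma's adjusted p = 0.295). Slc18a2 had 12.68, 12.45 and 12.58 with knockdown, against 12.94, 12.64 and 12.84 in controls, a difference of -0.24 ± 0.09 (SE; adjusted p = 0.209). For both transporters the groups overlapped, but the difference was negative in each same-numbered pair, from -0.22 to -0.11 for Slc18a1 and from -0.27 to -0.19 for Slc18a2. With the replicate block Slc18a2 had an adjusted p of 0.0293 at a fold of 1.18, below the cut-off. Without knockdown array 1 the difference of Slc18a1 was -0.10.

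Slc6a2 encodes the noradrenaline transporter of the outer membrane, NET. Its log2 values were 7.33, 7.17 and 7.36 in knockdown arrays, against 7.46, 7.46 and 7.42 in control arrays. The groups did not overlap, yet the gap between the nearest values was small, and the difference of -0.16 ± 0.07 (SE) had an adjusted p of 0.256 by limma. It was -0.10 without knockdown array 2. Maoa encodes monoamine oxidase A, the form that prefers noradrenaline and serotonin. It had 6.11, 6.17 and 6.01 with knockdown, against 6.17, 6.20 and 6.11 in controls, overlapping groups with a difference of -0.07 ± 0.07 (SE; adjusted p = 0.604) that was -0.10 without knockdown array 2 and -0.02 without knockdown array 3.

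To set the size of the Dbh difference beside that of each other gene, the log2 value of each other gene was subtracted from that of Dbh within the same array. Dbh minus Th was 1.43, 2.02 and 1.65 in the knockdown arrays, against 2.54, 2.60 and 2.32 in the control arrays. The groups did not overlap, and Dbh relative to Th differed by -0.79 on the log2 scale. Relative to the other genes the difference in Dbh was -0.93 (Slc18a2), -0.998 (Slc18a1), -1.01 (Slc6a2), -1.10 (Maoa), -1.18 (Pnmt), -1.31 (Gch1) and -1.40 (Ddc). In all 8 comparisons the 3 knockdown arrays lay below the 3 control arrays, and each exact two-sided permutation p was 0.1, also after adjustment over the 8. A design of 3 against 3 cannot give a smaller p, and the 8 comparisons share the Dbh values. Dbh was set against the others as the gene already seen to differ most, so these comparisons describe the size of that difference and are no further evidence for it. With same-numbered arrays as pairs the exact p was 0.25, again the smallest that 3 pairs allow.

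**Figure D4:**
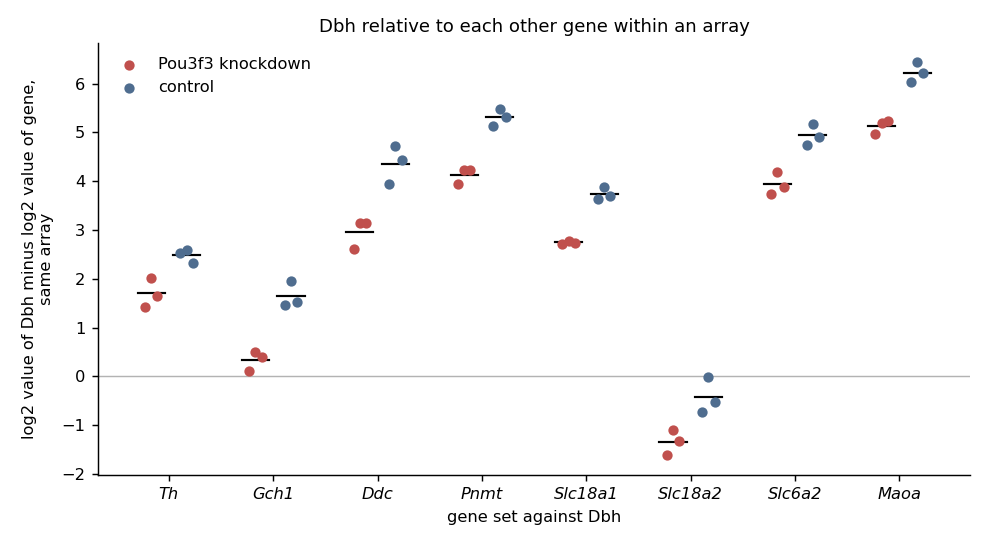
Log2 value of Dbh minus the log2 value of each other gene in the same array (vertical axis), in the 3 Pou3f3 knockdown arrays (red) and the 3 control arrays (blue), with bars for the group means. Heights of different genes are not comparable because probes differ in brightness, but for every gene the knockdown points lie below the control points, with mean differences from -0.79 (Th) to -1.40 (Ddc).

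The rows that followed Dbh most closely over the 6 arrays were F5, Chrna3, Ube4a, Kank2 and Fbxo31, with Pearson's r of 0.998 for F5 and 0.997 for the others. These arrays form the 2 groups, so r holds the group difference. After removal of the group means r was 0.95 to 0.97 for these 5 genes. They were picked by their r over the same arrays, so this follows largely from the choice and is no further evidence of likeness. Chrna3, the alpha3 subunit of the nicotinic receptor through which ganglion cells receive their input, fell by 0.44 on the log2 scale, with an adjusted p of 0.0192 by limma. Fbxo31, a subunit of a ubiquitin ligase, fell by 0.52 with the same adjusted p, but the mean of its several rows gave -0.25, which did not pass. With a filter that kept rows above the median variance of the whole table both calls were lost, with limma's adjusted p of 0.278 for Chrna3 and 0.253 for Fbxo31. F5 (-0.24), Ube4a (-0.29) and Kank2 (-0.20) were below the fold cut-off, and Kank2 also missed the p threshold, with limma's adjusted p of 0.136. Among the 9 genes, r with Dbh ran from -0.92 for Gch1 to 0.84 for Slc18a1, as a description of 6 arrays.

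Of 71 further genes listed around the pathway, 55 had a row with 1 symbol, and 3 of these were called, 2 lower and 1 higher. Differences were below 0 for 38 and above 0 for 17, with a median of -0.07 against -0.03 over all rows. Groups did not overlap for 25 of the 55, where 26.0% of all rows did not overlap. An unadjusted p under 0.05 was found for 17 of the 55, and counts at that level in the lists below stand beside 19.9% of all rows. Without the fold cut-off 7 of the 55 had an adjusted p under 0.1, 5 lower and 2 higher, where 4.45% of all rows did.

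Among the genes of cofactor supply 1 was called. Atp7a, the copper pump that loads copper into secretory vesicles, where dopamine beta-hydroxylase takes it up, had log2 values of 10.67, 10.65 and 10.49 with knockdown, against 11.23, 11.17 and 11.03 in controls. It fell in every same-numbered pair, with a difference of -0.54 ± 0.08 (SE) and an adjusted p of 0.0187 by limma. The other 6 measured genes of cofactor supply were not called, and the list's median was -0.05. Of the 6 measured tetrahydrobiopterin genes 0 were called (2 at an unadjusted p under 0.05), with a median of -0.01. Gchfr, the feedback regulator that restrains GTP cyclohydrolase 1, had the largest difference there, at -0.34 with an adjusted p of 0.151, and at -0.21 without knockdown array 1.

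Beyond Maoa, 8 of 11 breakdown and uptake genes were measured, with a median of -0.07. Aldh2, the mitochondrial aldehyde dehydrogenase that clears the aldehydes left by monoamine oxidase, rose to 10.15, 10.43 and 10.39 with knockdown, against 9.75, 9.82 and 10.06 in controls. Its difference of 0.44 ± 0.10 (SE) had an adjusted p of 0.0708 by limma. The call was lost without knockdown array 2 or 3 or without control array 1 or 2, with adjusted p between 0.108 and 0.238. Slc6a3, the dopamine transporter, had a difference of -0.15 and was not called.

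Enzymes and carriers for other amines gave 0 calls among 6 measured genes, of which 3 had an unadjusted p under 0.05. Tph1, a tryptophan hydroxylase of serotonin synthesis, stood at 0.33 with an adjusted p of 0.0704, below the fold cut-off, and its relative Tph2 stood at 0.22 with an adjusted p of 0.144. Catecholamine receptors gave 0 calls among 7 measured genes, of which 1 had an unadjusted p under 0.05. All 7 differences were below 0, with a median of -0.07, against -0.03 over all rows and -0.09 over the other-cell markers given below. Row means of the 7, from 6.87 to 8.68, lay within the range of those markers. The dopamine receptor Drd5 had the largest difference, at -0.26 with an adjusted p of 0.152 by limma.

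Transcription factors of the catecholaminergic state gave 0 calls among 13 measured genes, of which 2 had an unadjusted p under 0.05, and their median was 0.02. Gata3 had 10.47, 10.54 and 10.48 with knockdown, against 10.80, 10.90 and 10.77 in controls, groups that did not overlap. Its difference of -0.33 had an adjusted p of 0.0484 by limma at a fold of 1.25, below the cut-off. Phox2a, a homeodomain factor known to act on the Dbh promoter, had -0.18 with an adjusted p of 0.307, and -0.11 without control array 2. Values for Hand2 (0.04), Gata2 (-0.05) and Isl1 (0.06) were near 0.

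Genes for proteins of the chromaffin granule, in which the Dbh protein is stored, all had lower mean values with knockdown, and 1 of the 8 measured was called. The smallest differences were those of Pcsk1 (-0.05) and Scg2 (-0.07), with overlapping groups. Npy, the peptide released together with noradrenaline, fell to 9.52, 9.25 and 9.52 with knockdown, against 10.22, 9.97 and 10.25 in controls. Its difference was -0.72 ± 0.10 (SE) with an adjusted p of 0.0169 by limma. With the filter that kept rows above the median variance of the whole table, the calls of Npy, Atp7a and Aldh2 were lost, with limma's adjusted p between 0.201 and 0.315. With 1 row per gene and an interquartile range filter, these 3 calls stood. The granins Chgb (-0.38, adjusted p = 0.0456) and Chga (-0.35, adjusted p = 0.0628) passed the p threshold but stayed below the fold cut-off. Chgb lay just below it, at a fold of 1.299. Each of these granins was called in 2 of the 18 alternatives, including that with no fold cut-off. Groups of 6 of the 8 genes did not overlap, all with lower knockdown values, where 15.1% of all rows did so. The list's median was -0.23, the lowest of the 7 lists, against -0.03 over all rows and -0.09 over the other-cell markers given below.

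**Figure D5:**
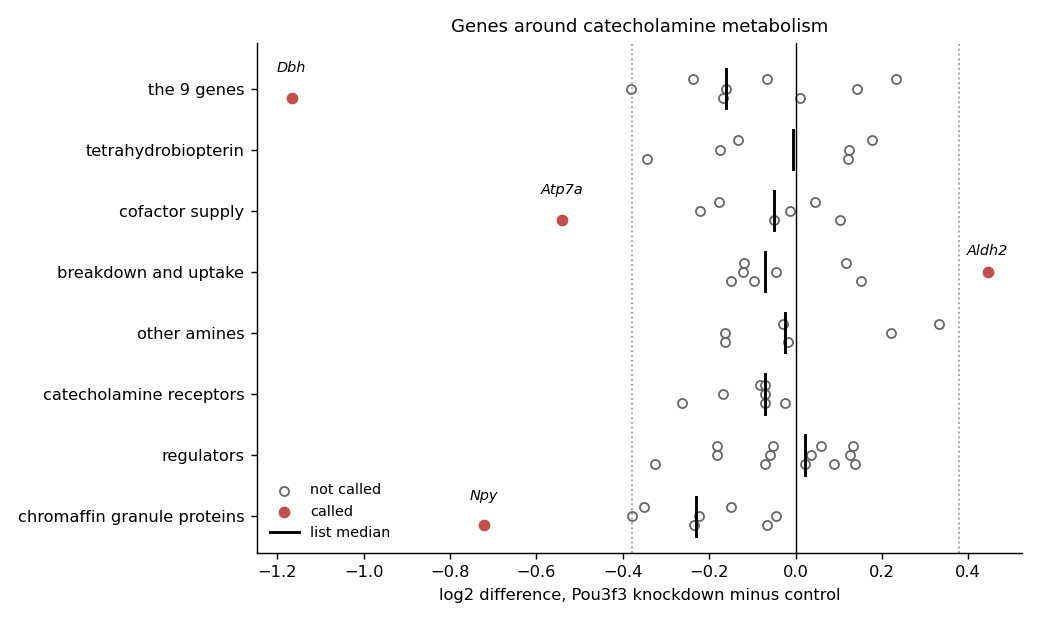
Log2 difference, Pou3f3 knockdown minus control, of the 9 genes and of the measured genes of 7 lists around the pathway (vertical offsets only separate points); filled red points were called, black bars are list medians and dotted lines mark the fold cut-off. Dbh, Atp7a, Npy and Aldh2 are the called genes, and the chromaffin granule list has the lowest median, -0.23.

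The labelled cell type was set against marker genes. Medians of the 6 arrays ran from 7.90 to 8.01. Of 9 markers of sympathetic neuroblastoma 7 were measured, with mean values from 10.66 to 13.76, and 0 were called, with 2 at an unadjusted p under 0.05. Of 23 markers of glia, fibroblasts, endothelium, macrophages and adrenal cortex 21 were measured, with mean values from 4.94 for Lum to 8.98 for Pecam1, and 0 were called (4 at an unadjusted p under 0.05, where 19.9% of all rows had one), with a median difference of -0.09. Their mean was 7.26 to 7.34 in the knockdown arrays and 7.34 to 7.42 in the control arrays, and their part in the differences above was not tested. Row means of Ddc (8.14), Pnmt (7.08), Slc18a1 (8.56), Slc6a2 (7.37) and Maoa (6.13) lay within the range of these other-cell markers. Those of the other 4 of the 9 genes lay above it, although probes differ in brightness. Detection above background was not analysed here, so whether these 5 dimmer genes were detected was not tested.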

How the data were processed

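Total RNA of 3 Pou3f3 knockdown and 3 control cultures was profiled on Mouse Gene 1.0 ST arrays. The authors background-corrected the arrays with RMA, normalised them by quantiles and summarised the probes of each transcript into a deposited log2 value. The submitters' processing notes name RMA and limma and give no versions. Quantile normalisation hides any change common to most transcripts, and precision is limited by the number of arrays.

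Gene names came from the platform's gene table, which gives 1 symbol for 21789 rows, several for 1621 (left unnamed) and none for 12146. For a gene with several rows, the row with the highest mean over the 6 arrays was taken. The model was fitted with lmFit and eBayes in limma 3.58.1 (R 4.3.3) on all rows with 1 symbol, without a block, and Benjamini-Hochberg adjustment ran over all of them. The threshold of 0.1 and the fold of 1.3 follow the study's methods. Its variance cut-off was read here as the median variance over all rows, a reading that the study does not spell out. This filter was not applied, in part because it leaves genes of the pathway untested, and was run as an alternative. The choice was made with earlier results of these data known. Permutation tests enumerated all 20 regroupings of the 6 arrays.

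The 9 genes and all lists were chosen with earlier results of these data known. Named are all 9 genes, the 4 class III POU factors, the 5 rows most correlated with Dbh and, from each list, the called genes or else the gene with the largest difference. Slc6a3, Tph1, Tph2, Gata3, Phox2a, Hand2, Gata2, Isl1, Chga and Chgb were named in addition, some of them after their values were seen. Deviations from the group means correlated at 0.64, 0.31 and 0.29 between same-numbered knockdown and control arrays over the rows with 1 symbol, and at -0.48 to 0.25 between arrays of different numbers. All same-number values exceeded 0.1, so the numbers were taken to pair the arrays, from the data and not from a stated design. Knockdown array 3 with control array 2 (0.25) and knockdown array 2 with control array 3 (0.22) exceeded 0.1 too. The correlations thus set only array 1 apart and do not settle how arrays 2 and 3 pair. Results by same-numbered arrays and with the block rest on these pairs. Promoter windows are RefSeq's for GRCm38.p6, and primer sequences are the study's.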

Additional observations from a re-analysis of the deposited data

How the results depend on the processing

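Dbh, 1 of the 9 genes, kept its call in all 18 alternatives, with adjusted p up to 0.0816. The number of the 9 genes called, 1 as reported, was 2 with the variance filter among rows with 1 symbol, 2 with 1 row per gene and an interquartile range filter and 2 with the replicate block, each time by the addition of Th, whose adjusted p was 0.0572, 0.0942 and 0.0420. It was 1 to 2 with single arrays left out, and 2 without control array 1. The variance filters left 5 or 4 of the 9 genes to test. Related genes called, 3 as reported, were 0 with the variance filter on all rows, where Atp7a, Aldh2 and Npy had adjusted p of 0.244, 0.315 and 0.201 and where Chrna3 and Fbxo31 lost their calls too, then 7 with no fold cut-off and 2 to 4 with single arrays left out. Over all rows, 433 calls became 12 with the variance filter, 969 with no fold cut-off and 147 to 611 with single arrays left out, with 161 without control array 2, 219 without control array 3 and 147 without knockdown array 2. The variance filter on all rows also took in rows without a symbol, and the cause of its low count was not tested. Aldh2 lost its call at an adjusted p of 0.05. With single arrays left out, Pnmt ran from -0.030 to 0.048, and its sign turned without control array 3 (-0.030), knockdown array 1 (-0.0075) and knockdown array 2 (-0.0036). Hand2 ran from -0.0086 without control array 1 to 0.069.

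Calls over all rows were 149 lower and 284 higher (65.6% higher) as deposited, 193 and 232 (54.6%) after cyclic loess, and 105 and 491 (82.4%) after median centring over all rows, an alternative chosen after seeing the data. In that last scaling Tph1 was called, at 0.38. It was called in 3 of the 18 alternatives, including that with no fold cut-off. The replicate block, with the numbers taken as pairs, added Th to the calls and changed no other call among the 9 genes and the named related genes. With 3 arrays a group, intervals of the 8 genes other than Dbh reach differences of 0.17 to 0.64 on the log2 scale, so differences up to these sizes lie within the intervals.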
